A study of Mus musculus with 9 samples.

Results

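The comparison described here set 3 cortices of mice given an antisense oligo against the enhancer RNA eRNA_06347 (knockdown 2, 3 and 4) against 3 cortices of mice given a negative control oligo (control 1, 2 and 3), 6 of the 9 libraries of the series. All 6 mice were male C57BL/6N animals of 9 to 12 weeks. The locked nucleic acid oligos were delivered into the lateral ventricles, and every mouse of both groups then had its middle cerebral artery occluded for 1 h and reperfused for 6 h before the infarcted cortex of the same side was taken. The remaining 3 libraries are sham-operated cortices from an earlier data set; their values are printed beside the others only as levels, with no test. Their aligned read length was 51 bases at its most common, and nuclear protein-coding genes held 30.6 to 34.2% of their TPM against 54.7 to 63.9% in the 6 libraries compared. The level of eRNA_06347 itself was not analysed here, because no source used gives its position, so the knockdown was not checked in these libraries.

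Enhancer RNAs are transcripts made from active enhancers, and some of them affect the transcription of genes nearby or on other chromosomes. A locked nucleic acid oligo pairs tightly with its target RNA and can lead to its cleavage in the nucleus. Most mouse genes make several transcripts that share much of their sequence, through different start sites, splice sites and polyadenylation sites, so a gene's total can stay level while the transcripts that make it up exchange places. The values are transcripts-per-million (TPM), an abundance scaled for transcript length, and a gene's level is the sum over its transcripts. A transcript's share is its percentage of that sum. Aligned bases, in parts-per-million (ppm) of the library's aligned bases, give a second gene level that does not depend on which transcript of the gene the bases are assigned to.

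The 6 libraries held an estimated 17500000 to 19600000 aligned read pairs, and 15656 to 16571 genes reached 1 TPM in each. Cortical neuron markers were present in all 6: Slc17a7, the vesicular glutamate transporter of cortical excitatory neurons, lay between 295 and 497 TPM, and Camk2a between 734 and 975 TPM. Knockdown 4 stood apart. Its log2 levels correlated with those of the other libraries at a median Pearson r of 0.943 across genes, against 0.969 to 0.973 for the medians of the other 5. It had the highest level by at least 1 log2 unit for 451 genes, against 6 to 18 genes for each other library. The labels give 3 mice per group, numbered 1 to 3 in the control group and 2 to 4 in the knockdown group, and p-values measure the spread between these 3 and 3 samples.

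At the level of whole genes, 1 gene was called higher and 1 lower of 17080 tested, 0.0117% (limma, Benjamini-Hochberg adjusted p under 0.05). Without adjustment, 321 genes had a p under 0.05, 1.88%. Both called genes are unusual: one is a mitochondrial tRNA and the other a processed pseudogene, and both lie outside the rule used for naming genes. No protein-coding gene was called.

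Gm7808 is a 387-base processed pseudogene at chr9:19927896-19928282 on the minus strand of GRCm38. mt-Ts2 is a mitochondrial serine tRNA at chrMT:11613-11671 on the plus strand. The whole mt-Ts2 sequence, from the GENCODE M21 transcripts, is shown because the gene is short and adjoins other transcribed sequence.
mt-Ts2: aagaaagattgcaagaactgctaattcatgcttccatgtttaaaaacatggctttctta

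Gm7808 was listed at 0 TPM in all 3 control libraries and at 10.2, 12.0 and 8.53 TPM in knockdown 2, 3 and 4. It was also listed at 0 in all 3 sham libraries. On the log2(TPM + 1) scale, whose value here depends on the pseudocount, the difference was 3.48 ± 0.18 (SE; limma adjusted p = 0.00317). Gm7808 met the filter for testing only through the knockdown libraries, where it is high. The controls, all listed at 0, showed no spread, so the SE and p are to be read with that limit. Olfr77, an olfactory receptor gene on the opposite strand at the same place, was at 0.627, 0 and 0.713 TPM in the controls and listed at 0 in every knockdown library. Reads of Gm7808, of any near-identical sequence and of its antisense neighbour cannot be fully told apart in these files, so the Gm7808 level is uncertain. The call was lost when any 1 control library was left out, with adjusted p of 0.0808, 0.0874 and 0.0524 without control 1, 2 and 3 (limma), and held without any 1 knockdown library.

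mt-Ts2 was at 125, 141 and 125 TPM in the controls and at 0.609, 0.683 and 0.814 TPM in knockdown 2, 3 and 4. Every knockdown library was far below every control, and the log2 difference was -6.27 ± 0.17 (SE; limma adjusted p = 9.02e-05). The sham libraries held 57.3, 28.4 and 47.3 TPM. The tRNA genes on either side did not separate the groups: mt-Th was at 203, 239 and 209 TPM in the controls and 71.6, 74.2 and 230 TPM in the knockdown libraries, and mt-Tl2 at 109, 113 and 106 TPM against 49.5, 50.7 and 126 TPM. None of the other 21 mitochondrial tRNAs separated the groups. Knockdown 2 and 3 had all 21 below the control mean, at median ratios of 0.652 and 0.606, and knockdown 4 had 6 of 21 below it, at a median ratio of 1.06. In aligned bases mt-Ts2 held 4.19, 4.40 and 4.45 ppm in the controls and 0.0190, 0.0224 and 0.0278 ppm in the knockdown libraries. Because the gene has 1 transcript, these values rest on the same coverage as its TPM and are not a second measure. The call held in all 6 fits that leave out 1 library. Libraries made by poly(A) selection are not designed to capture tRNAs. The gene is 59 bases long, against a most common pair length of 282 bases. It starts directly after mt-Th, which ends at base 11612, and shares its last base with mt-Tl2. How the estimation divided bases among these adjoining genes was not tested.

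The gene of smallest unadjusted p after these was Nup62, which encodes the central-channel nucleoporin p62 (chr7:44816088-44830812, plus strand). It was at 4.55, 6.10 and 3.01 TPM in the controls and at 38.5, 36.7 and 28.2 TPM in the knockdown libraries, a 7.57-fold ratio of means, with sham libraries between 8.98 and 9.32 TPM. The groups did not overlap. The log2 difference of 2.70 ± 0.27 (SE) missed the threshold (limma adjusted p = 0.152). It passed with a filter on the 6 libraries, a mean TPM of at least 5, median-ratio scaling, library weights and all 9 libraries, with adjusted p from 0.000907 to 0.0473 (limma). It did not pass in the other settings, among them each fit that leaves out 1 library. In aligned bases the gene held 6.16, 7.87 and 4.29 ppm in the controls and 55.3, 55.4 and 44.2 ppm in the knockdown libraries, and the groups were apart on that scale too (limma adjusted p = 0.0569). Nup62-201 held 68.0, 56.6 and 59.9% of the gene's TPM in the controls and 98.5, 100 and 99.5% in the knockdown libraries. The 2 scales therefore rest largely on the coverage of 1 transcript. Nup62-201, the transcript that carries the gene, rose from 3.09, 3.45 and 1.80 TPM to 37.9, 36.7 and 28.1 TPM (limma adjusted p = 0.0388). That transcript was called in none of the 6 fits that leave out 1 library. Atf5, a stress-response transcription factor gene that overlaps Nup62 on the other strand, was at 18.2, 26.6 and 30.8 TPM against 25.97, 31.4 and 25.95 TPM. The files' estimates used no strand setting, so reads of the 2 genes cannot be told apart where they overlap.

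The other genes named for a higher level did not pass either. They were taken, as Nup62 was, by smallest p among genes whose groups do not overlap, and such genes made up 3.6% of all tested on the higher side and 1.8% on the lower side. Tsc22d3, which encodes the glucocorticoid-induced leucine zipper GILZ, was at 40.05, 59.6 and 51.2 TPM in the controls and 81.3, 103 and 117 TPM in the knockdown libraries, a log2 difference of 0.99 ± 0.21 (SE; limma adjusted p = 1). Rpa1, the large subunit of the single-stranded DNA binding protein RPA, was at 8.16, 9.80 and 7.83 TPM against 17.1, 15.5 and 20.8 TPM. Emx2, a homeobox gene of cortical patterning, was at 3.96, 4.73 and 3.47 TPM against 8.05, 8.18 and 7.45 TPM. These 3 also kept apart in aligned bases. For Emx2 both scales rest mostly on Emx2-201. Over the 12 genes named for a higher level, log2 differences lay between 0.53 and 2.70 and adjusted p between 0.152 and 1 (limma).

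Among the rest of the 12, Slc39a9, a zinc transporter gene, was at 6.64, 4.84 and 3.76 TPM in the controls and 8.50, 23.6 and 22.3 TPM in the knockdown libraries. Knockdown 2 was close to the controls and knockdown 3 and 4 far above them. Sox2ot, a long noncoding RNA gene that contains Sox2, was at 1.90, 2.89 and 1.86 TPM against 5.93, 3.94 and 5.45 TPM. Rnf19b, which encodes a RING-type ubiquitin ligase, was at 42.8, 43.9 and 40.3 TPM against 58.3, 73.7 and 68.7 TPM. Anp32b, a histone chaperone gene with a single transcript, was at 69.7, 89.2 and 73.5 TPM against 103, 123 and 109.8 TPM. All 4 were apart in aligned bases as well. For Anp32b this is not a second measure, because both scales rest on the coverage of its single transcript. Plpp2, a lipid phosphate phosphatase gene, was at 1.39, 1.32 and 1.49 TPM against 2.61, 2.89 and 2.804 TPM, and apart on both scales, which rest mostly on Plpp2-201. Pkib, a protein kinase A inhibitor gene, was at 1.19, 1.997 and 1.68 TPM against 3.07, 3.17 and 3.30 TPM, and its aligned bases overlapped. Nat8f7, of the N-acetyltransferase 8 family, was at 1.57, 1.65 and 1.85 TPM against 3.86, 2.72 and 4.18 TPM, and its aligned bases overlapped too.

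The genes named for a lower level had log2 differences of 0.53 to 1.12 in size, and none passed (limma; adjusted p = 1 for each gene described here). Cap1, an actin-regulating protein, was at 185, 271 and 245 TPM in the controls and 124, 136 and 122 TPM in the knockdown libraries. Cd59a, an inhibitor of the complement membrane attack complex, was at 10.5, 9.66 and 9.71 TPM against 4.57, 4.42 and 6.60 TPM. In both the knockdown libraries lay wholly below the controls, in TPM and in aligned bases alike. For Cd59a both scales rest mostly on Cd59a-201. Mfap3, which encodes a microfibril-associated protein, was at 6.69, 7.73 and 6.69 TPM against 3.02, 1.73 and 3.58 TPM. Lmo4, a LIM-domain transcriptional cofactor of cortical neurons, was at 139, 125 and 134 TPM against 96.0, 93.4 and 85.5 TPM. Syvn1, the ubiquitin ligase of endoplasmic reticulum-associated degradation, was at 30.3, 35.0 and 21.2 TPM against 16.0, 16.6 and 18.5 TPM. The highest knockdown value lay close under the lowest control value for Syvn1, and further below it for Lmo4.

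Fbxo7, an F-box gene tied to mitophagy, was at 26.004, 22.1 and 23.6 TPM in the controls and 15.9, 16.8 and 12.3 TPM in the knockdown libraries. Pcdh7, a protocadherin gene, was at 17.6, 17.2 and 16.6 TPM against 12.9, 9.97 and 8.36 TPM. Sgsm2, a Rab GTPase-activating protein gene, was at 36.1, 22.8 and 33.9 TPM against 18.7, 17.0 and 19.4 TPM. Each was apart in aligned bases as well. Tmem170b was at 17.3, 10.9 and 14.2 TPM against 6.33, 5.47 and 9.62 TPM, a log2 difference of -0.91 in TPM and -3.18 in aligned bases. Rn7s2, a signal recognition particle RNA that poly(A) selection is not designed to capture, was at 28.8, 40.8 and 43.9 TPM against 21.8, 18.2 and 15.1 TPM, and between 134234 and 158074 TPM in the sham libraries. Hsd3b7, a bile acid synthesis enzyme gene, was at 14.3, 10.2 and 10.7 TPM against 4.25, 3.42 and 7.80 TPM. It overlaps the readthrough model AC149222.1 on the same strand, which was listed at 0 in the controls and at 1.48, 1.93 and 3.17 TPM in the knockdown libraries.

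**Figure D1:**
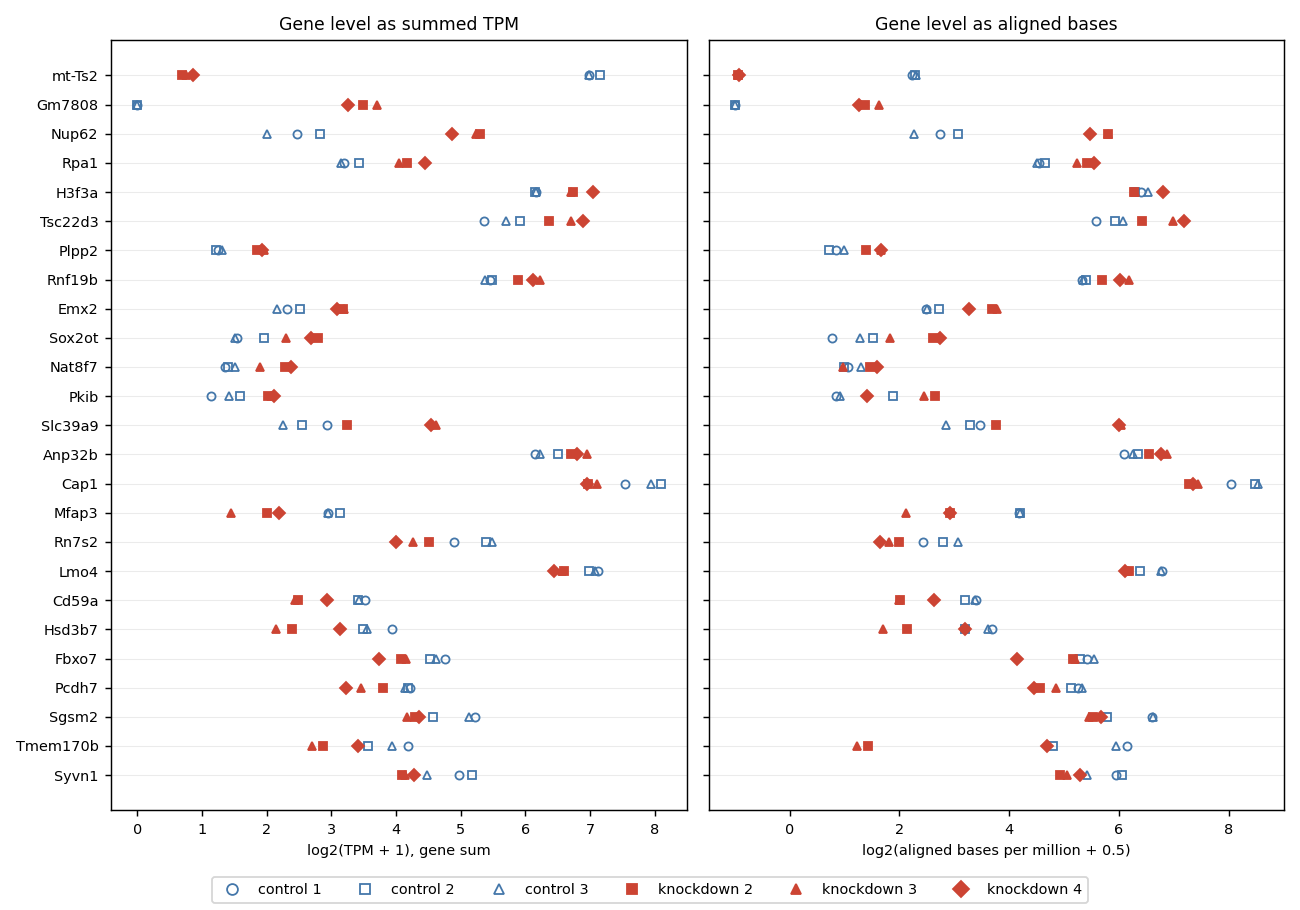
Levels of the 2 called genes and the named genes in each library: log2(TPM + 1) on the left and log2(aligned bases in ppm + 0.5) on the right, with open blue symbols for control and filled red symbols for knockdown libraries. Nup62 stays apart on both axes, whereas the groups of H3f3a are apart in TPM and mixed in aligned bases.

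Transcript by transcript, 20 were called higher and 7 lower of 39894 tested, 0.0677% (limma, adjusted p under 0.05), with 1460 at an unadjusted p under 0.05, 3.66%. The test of shares called 13 transcripts higher and 12 lower of 27984, 0.0893%, with 1251 at an unadjusted p under 0.05, 4.47%. The 25 called shares fell in 20 genes, none of which was called at the gene level. Of the 27 called transcripts, 16 were isoform shifts by the rule used (share called, gene not), 2 were gene-level changes (mt-Ts2 and Gm7808, which have 1 transcript each), none was both, and 9 were neither. The latter include Nup62-201, Bsg-202 and H3f3a-201. Among the 27, 8 were listed at 0 in every control library and 2 at 0 in every knockdown library. Some, such as Gm7808-201 and Tm4sf1-206, were at or near 0 in the sham libraries too. Those met the filter only through the knockdown libraries, where they are high. A share rests on how the authors' estimation divided reads among transcripts that overlap. For the 12 transcripts named for their shares, overlap was computed with the transcript of the gene that moved most the other way. It covered 62.6% (Ptms-203) to 100% (Stam-209 and Fbxw2-204) of their bases. It was not computed for the other transcripts described below. The part of the division of reads in the called shares was not tested, so an isoform shift here is a difference between estimates.

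Eif5a, the translation elongation and termination factor that carries hypusine, gave the smallest p of both tests. Eif5a-203 was at 231, 215 and 202 TPM in the controls and at 0.0821 TPM or less in the knockdown libraries, and its share was 76.9, 68.3 and 68.5% against 0.0248% or less (limma adjusted p = 0.00248 for the share). The transcript that took its place differed between the knockdown libraries. Eif5a-207 held 68.1% of the gene in knockdown 2, Eif5a-209 held 74.7% in knockdown 3, and Eif5a-210 held 86.4% in knockdown 4. Eif5a-203 and Eif5a-209 share 1119 of their 1286 and 1259 bases and the same 462 coding bases. The gene sum was 301, 314 and 295 TPM against 331, 431 and 299 TPM, an overlap with a log2 difference of 0.20. In aligned bases the groups of Eif5a did not overlap, at 219, 212 and 228 ppm against 241, 305 and 230 ppm, a log2 difference of 0.22 that did not pass (limma adjusted p = 1). In the sham libraries Eif5a-203 held at most 0.112%, and their leading transcript also differed, Eif5a-209 in 2 and Eif5a-207 in 1.

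Stam encodes an endosomal sorting (ESCRT-0) subunit. Stam-209, annotated as a target of nonsense-mediated decay, was listed at 0 in every control and at 49.7, 51.4 and 33.2 TPM in the knockdown libraries, 71.0, 74.8 and 70.9% of the gene (limma adjusted p = 0.00826 for the share). The full-length coding transcript Stam-202 went from 73.7, 69.5 and 75.6% to 10.4, 10.2 and 13.6% (adjusted p = 0.033, limma). Stam-209 is 2610 bases long and lies wholly within Stam-202, which is 5000 bases. In TPM the groups of the gene sum did not overlap, with a log2 difference of 0.86 that did not pass (limma adjusted p = 1), but its aligned bases overlapped, at 73.2, 95.9 and 62.6 ppm in the controls and 99.1, 102 and 73.0 ppm in the knockdown libraries. The sham libraries held 71.6 to 72.5% Stam-209.

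H3f3a, which encodes the replication-independent histone H3.3, also had groups that were apart in TPM and overlapped in aligned bases. H3f3a-201, of 888 bases, rose from 23.7, 22.8 and 19.8 TPM to 69.4, 73.4 and 82.9 TPM (limma adjusted p = 0.0455; share adjusted p 0.243), while H3f3a-205, of 2841 bases, was at 44.5, 44.4 and 46.7 TPM against 28.2, 25.6 and 40.3 TPM. The gene's TPM differed by 0.67 on the log2 scale and its aligned bases by 0.05. For Afdn, an adherens junction scaffold gene, the log2 difference was 0.58 in TPM and -0.08 in aligned bases, and for Tm4sf1, an endothelial tetraspan gene, 0.85 and -0.01. Tm4sf1 was at 20.5, 20.1 and 29.9 TPM in the controls and 30.96, 31.7 and 77.9 TPM in the knockdown libraries, so much of its difference in TPM was in knockdown 4, the library in which all 12 endothelial markers were highest. In all 4 genes the transcript of higher share in the knockdown libraries was the shorter of the pair.

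**Figure D2:**
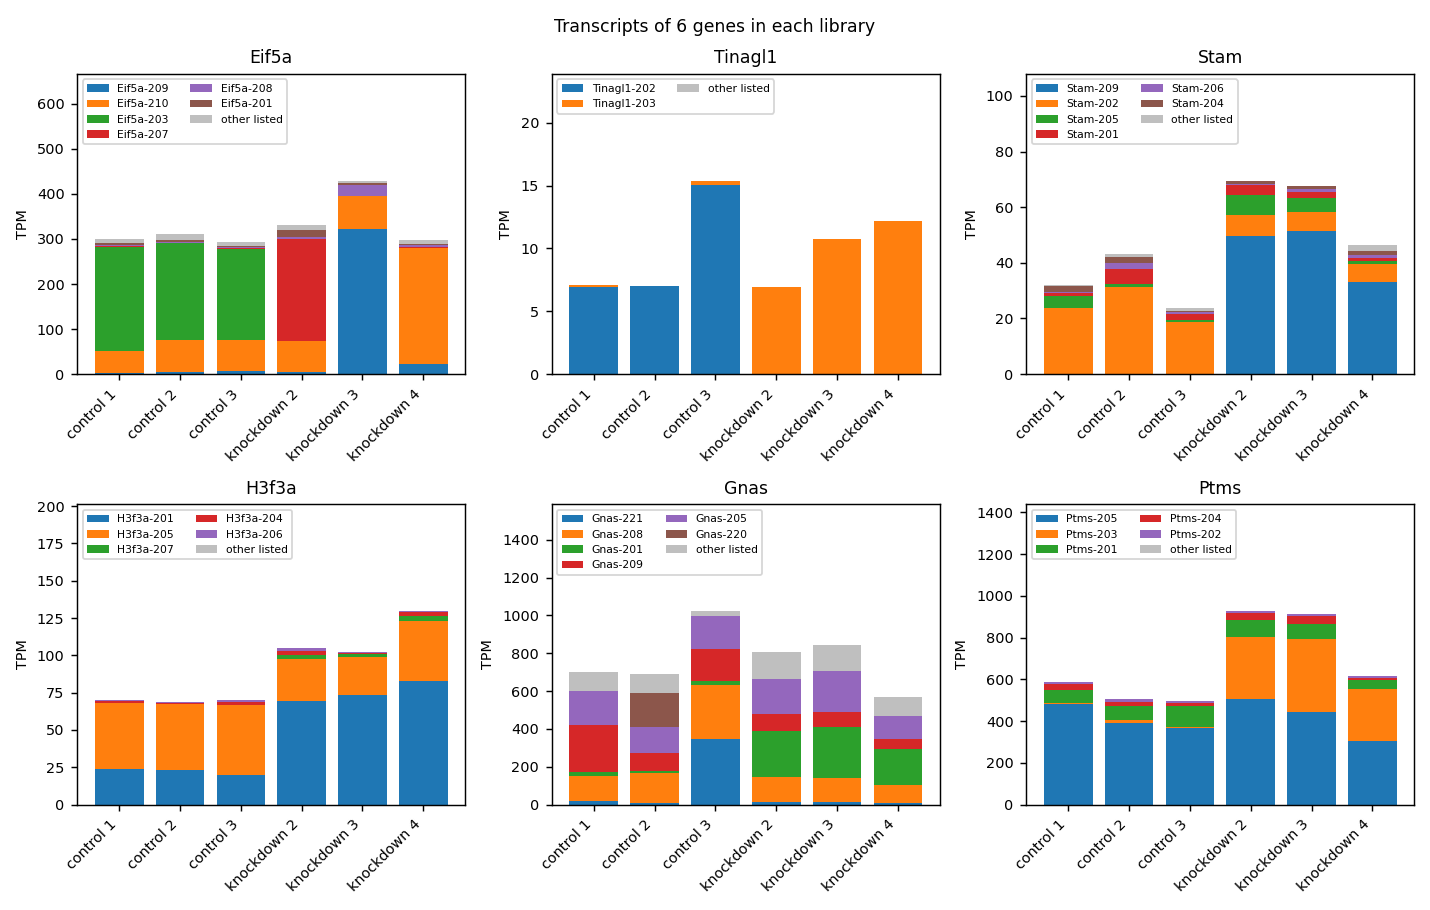
TPM of the transcripts of Eif5a, Tinagl1, Stam, H3f3a, Gnas and Ptms in each of the 6 libraries, stacked, with the 6 most abundant in colour and the rest listed in grey. The Eif5a bars keep a similar height while a different transcript fills each knockdown library, and 1 Tinagl1 transcript gives way to another.

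Among the other named shares, Tinagl1, a secreted matrix protein gene, exchanged 1 transcript for another. Tinagl1-202 held 89.9, 92.5 and 90.5% in the controls and was listed at 0 in the knockdown libraries, while Tinagl1-203 held 1.27, 0.0785 and 2.14% against 98.3, 90.4 and 88.3% (limma adjusted p = 0.00866 and 0.0104). The 2 share their whole coding sequence of 1398 bases, and the gene sum differed by 0.07 on the log2 scale. Gemin8-202, from a gene of the SMN complex that assembles spliceosomal particles, was at 0, 0 and 0.153% against 70.6, 69.3 and 67.7%. It too encodes the same coding sequence as its counterpart Gemin8-201. Nrsn1-204, from a neuron-specific vesicle protein gene, went from 0.737, 0.698 and 0.654% to 10.9, 10.7 and 13.4% with no change of coding bases.

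Gnas, an imprinted locus whose main product is the stimulatory G protein alpha subunit, had 2 called transcripts. Gnas-201 was at 20.5, 10.5 and 22.7 TPM in the controls and 245, 269 and 191 TPM in the knockdown libraries, and Gnas-223 at 1.93, 0.904 and 0.846 TPM against 104, 105 and 65.7 TPM. The gene sum differed by -0.12 on the log2 scale. The controls did not share 1 makeup: Gnas-220 was at 183 TPM in control 2 alone and Gnas-221 at 346 TPM in control 3. Ptms-203, a retained-intron transcript of the parathymosin gene, was at 7.79, 11.9 and 6.23 TPM against 298, 352 and 249 TPM, or 1.33, 2.35 and 1.25% against 32.1, 38.6 and 40.4% of the gene. The sham libraries held 1.81 to 3.01%.

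Fbxw2-204, from a gene for an F-box subunit of ubiquitin ligases, was at 19.4, 14.6 and 25.0% of its gene in the controls and listed at 0 in the knockdown libraries (limma adjusted p = 0.0294). In the sham libraries it was at 16.0, 0 and 31.4%. It lacks 195 consecutive coding bases that Fbxw2-201 has, a multiple of 3. They are shown in capitals with 10 bases on each side, above the same place in Fbxw2-204. The skipped bases lie at chr2:34812815-34813009 on the minus strand.
Fbxw2-201: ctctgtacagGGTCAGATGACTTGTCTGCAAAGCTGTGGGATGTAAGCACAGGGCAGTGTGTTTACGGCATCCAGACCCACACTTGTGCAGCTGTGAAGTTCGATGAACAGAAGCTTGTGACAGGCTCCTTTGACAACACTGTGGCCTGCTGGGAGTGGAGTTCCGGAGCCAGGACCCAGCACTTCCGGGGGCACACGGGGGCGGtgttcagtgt
Fbxw2-204: ctctgtacagtgttcagtgt

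Bsg-202, from the gene for basigin, a chaperone of lactate transporters, rose from 47.8, 40.5 and 53.7 TPM to 173, 181 and 160.1 TPM (limma adjusted p = 0.0388). Cnppd1-208 and Cnppd1-201 moved in opposite directions, at 2.47, 1.999 and 1.47 TPM against 21.8, 21.4 and 24.6 TPM and at 10.5, 12.1 and 12.2 TPM against 0.569, 0.0221 and 0 TPM. Nlgn1-202, from the gene for the synaptic adhesion protein neuroligin, was listed at 0 in every control and at 5.30, 4.70 and 4.26 TPM in the knockdown libraries. Its sham values lay between 9.72 and 13.1 TPM. The share of Nlgn1-202 did not pass (limma adjusted p = 0.103). Nlgn1-201 was also listed at 0 in every control, and at 1.78 to 7.88 TPM in the knockdown libraries. Nlgn1-203 held 86.0, 66.2 and 71.3% of the gene in the controls and at most 7.32% in the knockdown libraries. The part of the division of reads in the zeros of the controls was not tested. Atxn2-207, from the ataxin gene of RNA metabolism, was listed at 0 in every control and at 11.5, 14.9 and 8.88 TPM in the knockdown libraries. Stoml1-206 was at 0.270, 0.411 and 0.734 TPM against 16.5, 15.2 and 21.97 TPM. Jakmip1-204, from a gene for a microtubule-associated protein, was at 9.07, 21.1 and 15.5 TPM in the controls and listed at 0 in the knockdown libraries.

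Of the 10 transcripts named for a lower level, 5 did not pass (limma adjusted p = 0.0635). Among these, Dhcr7-201, from the gene of the last step of cholesterol synthesis, held 74.1, 72.0 and 73.9% of its gene in the controls and 0, 0 and 7.22% in the knockdown libraries. Aifm1-204, a retained-intron transcript of the apoptosis-inducing factor gene, held 34.4, 41.6 and 40.9% against 0, 0.366 and 2.48%, and its share passed (limma adjusted p = 0.0467). The other 3 were Btbd8-203, Tyro3-206 and Hsd3b7-201. In 17 transcripts the share was 0 in all 3 controls and at least 10% in all 3 knockdown libraries, and in 5 the reverse.

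**Figure D3:**
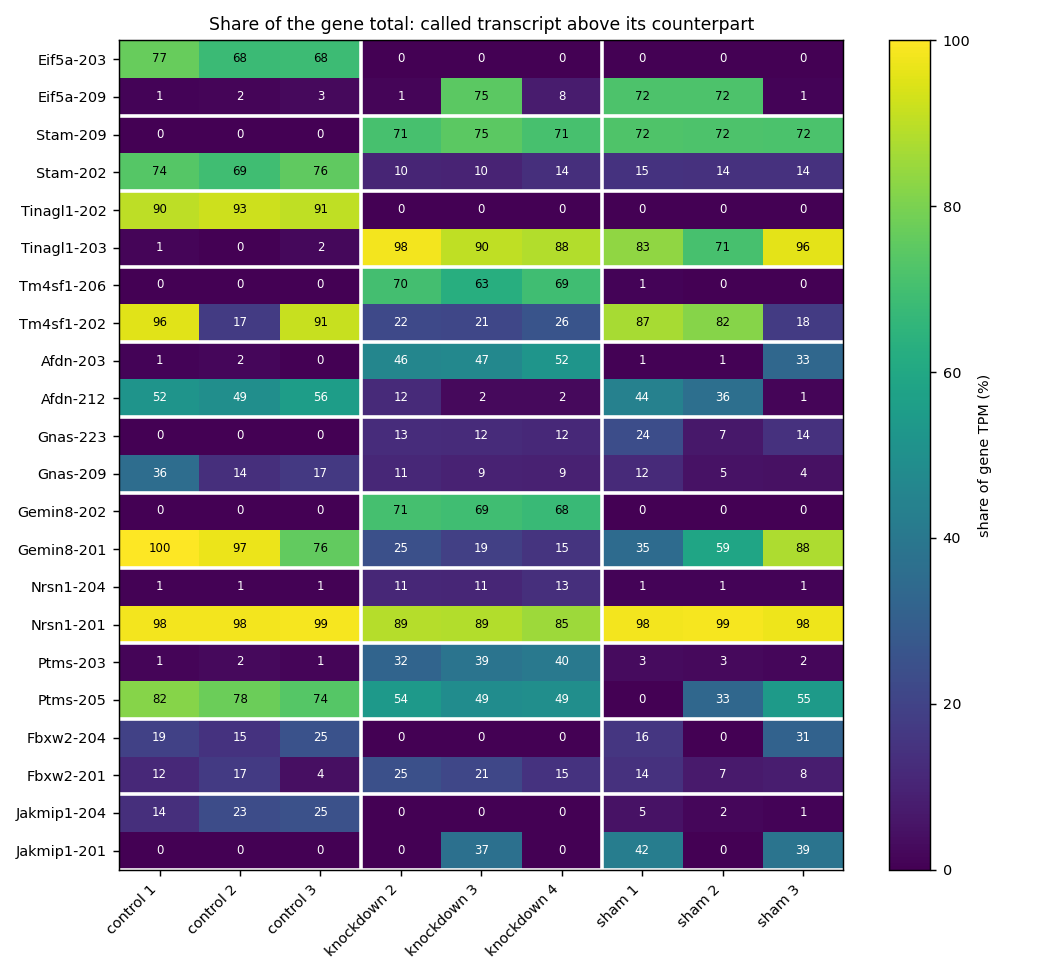
Share of the gene's TPM, in percent, of the named transcripts, each above the transcript of its gene that moved most the other way, in the 3 control, 3 knockdown and 3 sham libraries. Stam and Tinagl1 have similar shares in knockdown and sham libraries, whereas Tm4sf1-206 and Gemin8-202 are near 0 in sham.

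Leaving out a library ended most of these calls. Of the 27 called transcripts, 2 (Eif5a-203 and mt-Ts2-201) were called in all 6 fits that leave out 1 library and 17 in none. Of the 25 called shares, Eif5a-203 alone was called in all 6 and 17 in none. Without knockdown 4, 9 of the transcripts and 6 of the shares were still called. No share was called higher without control 1, control 3 or knockdown 3, and no transcript was called higher without knockdown 3. Stam-209 was called in 4 of the 6 fits as a transcript and in 3 as a share.

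Exchanges of transcripts were common between any 2 libraries, whichever group they came from. The most abundant transcript was the same in all 3 control libraries for 66.1% of 7509 genes with several transcripts, in all 3 knockdown libraries for 67.1%, and in all 6 for 54.1%. Pairs of libraries agreed on it for 75.7 to 76.2% of genes within the control group, 75.7 to 78.1% within the knockdown group, and 75.1 to 76.99% between the groups. Of 4111 genes whose leading transcript was fixed within both groups, 45 (1.09%) had a different one in each. These include Stam, H3f3a, Cnppd1, Afdn and Ndufa5.

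**Figure D4:**
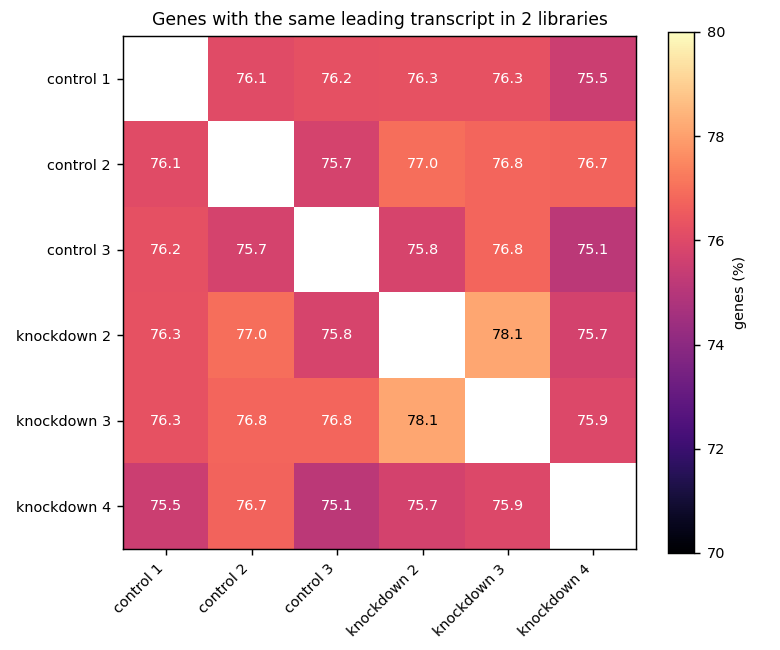
Percentage of 7509 genes whose most abundant transcript is the same in 2 libraries, for each pair of the 6 libraries; the colour scale runs from 70 to 80%. The pairs between groups sit in the same range as those within groups.

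Counting by separation rather than by test, 569 transcripts had a share at least 10 percentage points higher in the knockdown group with no overlap, 2.03% of those tested, and 544 a share as much lower, 1.94%. They fell in 815 of 7509 genes, 10.9%. In 770 of the 815 the gene's own log2 difference was under 0.58, and in 20 the gene was apart by at least that much as well. Over all genes, 169 were apart with a log2 difference of at least 0.58, 0.989%, and 94 of these (55.6%) were also apart by as much in aligned bases. The percentage was 65 for the 20 genes with such a share and 64.7 for 34 share-tested genes without one. It was 51.3 for the 115 genes whose shares were not tested. The 2 scales also differ in pseudocount, 1 TPM against 0.5 ppm, and the source of their disagreement was not tested. Retained-intron transcripts made up 21.1% of the shares tested, 5.62% of those higher and 14.5% of those lower. Protein-coding transcripts made up 61.7, 81.4 and 71.7% of the same sets. A share under 10% cannot fall by 10 points, and the starting share was not taken into account. As a percentage of protein-coding gene TPM, retained-intron transcripts were 6.32, 7.20 and 5.43% in the controls and 4.54, 5.06 and 6.996% in the knockdown libraries, so the groups overlapped.

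Across 47 lists of stress, inflammation, neuronal and cell type genes, no member was called (limma) among 838 distinct genes tested. Unadjusted, 13 had a p under 0.05 (1.551%), against 1.88% of all genes. The knockdown libraries lay wholly above the controls for 28 members (3.34%) and wholly below for 10 (1.19%), against 3.6% and 1.8% of all genes tested, so both shares were under the background. The median log2 difference over all genes was 0.06.

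Genes of the cell stress response were not called. The counts of genes that were apart in the lists below are to be read against the same background, 3.6% of all genes on the higher side and 1.8% on the lower. In the unfolded protein and integrated stress response list, 3 of 28 genes were apart on the higher side and none on the lower, with a median log2 difference of 0.25 that lay between 0.14 and 0.35 when 1 library was left out. Dnajb9, an endoplasmic reticulum co-chaperone, was at 63.2, 60.5 and 47.3 TPM against 81.2, 71.7 and 70.2 TPM. Among 25 Nrf2 and oxidative stress genes 4 were apart on the higher side, with a median of 0.25. That median was 0.12 without knockdown 4, in which 13 of the 25 genes were highest. Hmox1, which breaks down heme, was at 81.3, 103 and 86.7 TPM against 124, 112 and 630 TPM, so most of its difference was in knockdown 4. Sod2, the mitochondrial superoxide dismutase, was at 49.8, 53.5 and 53.1 TPM against 69.4, 56.7 and 70.4 TPM. Of 21 heat shock chaperones 2 were apart, Hspb8 and Bag3, which act together on misfolded proteins, and the list's median was 0.17. It was 0.03 without knockdown 2, 0.05 without knockdown 3, 0.04 without control 3, 0.34 without control 2 and 0.39 without knockdown 4. Hspb8 was at 27.6, 28.2 and 29.8 TPM against 31.8, 32.7 and 44.0 TPM. Gadd45b, a stress-induced gene in the p53 list, was at 96.3, 90.1 and 102 TPM against 126, 111 and 127 TPM.

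Neuronal lists had small median differences, whose sign changed with the libraries included. The 22 glutamate receptor genes had a median of -0.08, the 29 potassium channel genes -0.03 and the 25 presynaptic genes -0.09. Without knockdown 4 the same medians were 0.05, 0.12 and 0.11, and without control 2 they were 0.003, 0.04 and 0.02. Knockdown 4 was the lowest library for 13 of the glutamate receptor genes and 18 of the presynaptic genes. Cacna1h, a T-type calcium channel, was at 25.4, 28.5 and 19.2 TPM against 16.4, 16.2 and 13.8 TPM, and Scn3b, a sodium channel beta subunit, at 5.65, 8.44 and 5.21 TPM against 22.4, 11.1 and 8.59 TPM. The groups of both genes were apart, and neither passed (limma adjusted p = 1). Gria3, an AMPA receptor subunit, was at 51.7, 56.4 and 43.2 TPM against 32.1, 42.3 and 41.7 TPM. Among 12 excitatory neuron markers 7 had a positive difference, the median was 0.06, and 1 was apart, on the lower side: Tbr1, a transcription factor of deep-layer neurons, at 65.7, 61.2 and 55.9 TPM against 55.5, 39.4 and 41.6 TPM. Among 12 astrocyte markers 7 were likewise positive, the median was 0.05, and 1 was apart, also lower: Gja1, the astrocyte gap junction protein, at 111, 102 and 113 TPM against 57.3, 98.7 and 77.5 TPM. The excitatory median was -0.11 without control 3, -0.09 without knockdown 2 and -0.04 without knockdown 3, and the astrocyte median -0.10 without control 2 and -0.03 without knockdown 4. Of 31 immediate early genes 1 was apart, near the background share on the lower side: Egr2, an activity-induced transcription factor, at 8.86, 5.34 and 7.62 TPM against 4.92, 4.32 and 4.25 TPM. Among 38 splicing factors, Hnrnpu was at 216, 174 and 151 TPM against 100, 99.3 and 149 TPM, Srsf2 was apart on the higher side, and the list's median was 0.04, and between -0.11 (without control 3) and 0.21 (without control 2) when 1 library was left out.

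The 13 nuclear long noncoding RNAs tested had a median log2 difference of -0.31, with 3 positive and none apart. Leaving out 1 library gave medians from -0.55 (without control 3) to -0.03 (without control 2). Malat1 was at 133, 264 and 91.1 TPM in the controls and 49.5, 53.9 and 263 TPM in the knockdown libraries, and Meg3 at 402, 498 and 208 TPM against 107, 185 and 399 TPM. The groups of both overlapped. Hemoglobin transcripts varied widely inside the groups: Hbb-bs was at 49.8, 288 and 713 TPM in the controls and 639, 944 and 94.3 TPM in the knockdown libraries. Of 39 cytosolic ribosomal protein genes 3 were apart on the higher side, against the 3.6% of all genes, with a median of 0.14 that lay between 0.06 (without control 2) and 0.21 (without control 3). Ttr, a choroid plexus marker, was at 56.7 TPM in knockdown 3 and between 0.518 and 1.81 TPM in the other 5.

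In the inflammatory lists that follow, knockdown 4 lay above every control, and knockdown 2 and 3 lay below the control mean. Relative to the control mean on the log2 scale, the 10 of 18 neutrophil markers that passed the filter stood at 0.95, -1.43 and 0.48 in the controls, -0.81 and -0.78 in knockdown 2 and 3, and 2.79 in knockdown 4, where all 10 were highest. The 15 monocyte and macrophage markers stood at 0.67, -0.59, -0.08, -0.53, -0.60 and 2.56 in the same order, and all 15 were highest in knockdown 4. The 37 interferon-stimulated genes stood at 1.00, -0.61, -0.40, -0.55, -0.72 and 1.68, with 36 highest in knockdown 4. Fewer cells of a type and less RNA per cell cannot be told apart in whole tissue.

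Single genes showed the gap. Saa3, an acute-phase protein gene, was at 364, 0.931 and 9.46 TPM in the controls and 4.03, 2.22 and 8167 TPM in the knockdown libraries. Arg1, the arginase of activated macrophages, was at 3.64, 0.221 and 0.544 TPM against 1.05, 0.591 and 167 TPM. Il1b, the interleukin-1 beta gene, was at 4.05, 1.37 and 10.5 TPM against 3.95, 1.97 and 116 TPM. Control 1 was the next highest library for Saa3 and Arg1, and control 3 for Il1b. Cxcl10, an interferon-induced chemokine, was at 88.1, 4.87 and 8.64 TPM against 4.16, 2.14 and 127 TPM.

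The direction of these lists depended on single libraries, knockdown 4 and others. With all 6 libraries the median log2 difference was 0.46 for neutrophil markers, 0.45 for monocyte and macrophage markers, 0.12 for interferon-stimulated genes and 0.25 for the Stat3 and acute-phase list. Without knockdown 4 the medians were -0.73, -0.66, -0.54 and -0.68. Without control 2 they were -0.37, 0.11, -0.08 and -0.03, and without control 3 the interferon median was -0.08. No single gene of the 47 lists was called with or without knockdown 4 (limma; smallest adjusted p = 0.776 without knockdown 4). Microglia markers had a median of 0.41, which stayed positive with any 1 library left out, from 0.11 (without knockdown 4) to 0.52 (without control 2). Of the 12 markers, 10 were positive and 8 were highest in knockdown 4. The groups were apart on the higher side for 2 of them, against 3.6% of all genes. Trem2, a microglial lipid receptor, was apart at 19.3, 20.6 and 16.1 TPM against 24.2, 23.1 and 29.5 TPM, and did not pass (limma adjusted p = 1). Endothelial markers were highest in knockdown 4 for all 12 genes. The part of blood-derived cells in the differences between the groups was not tested.

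**Figure D5:**
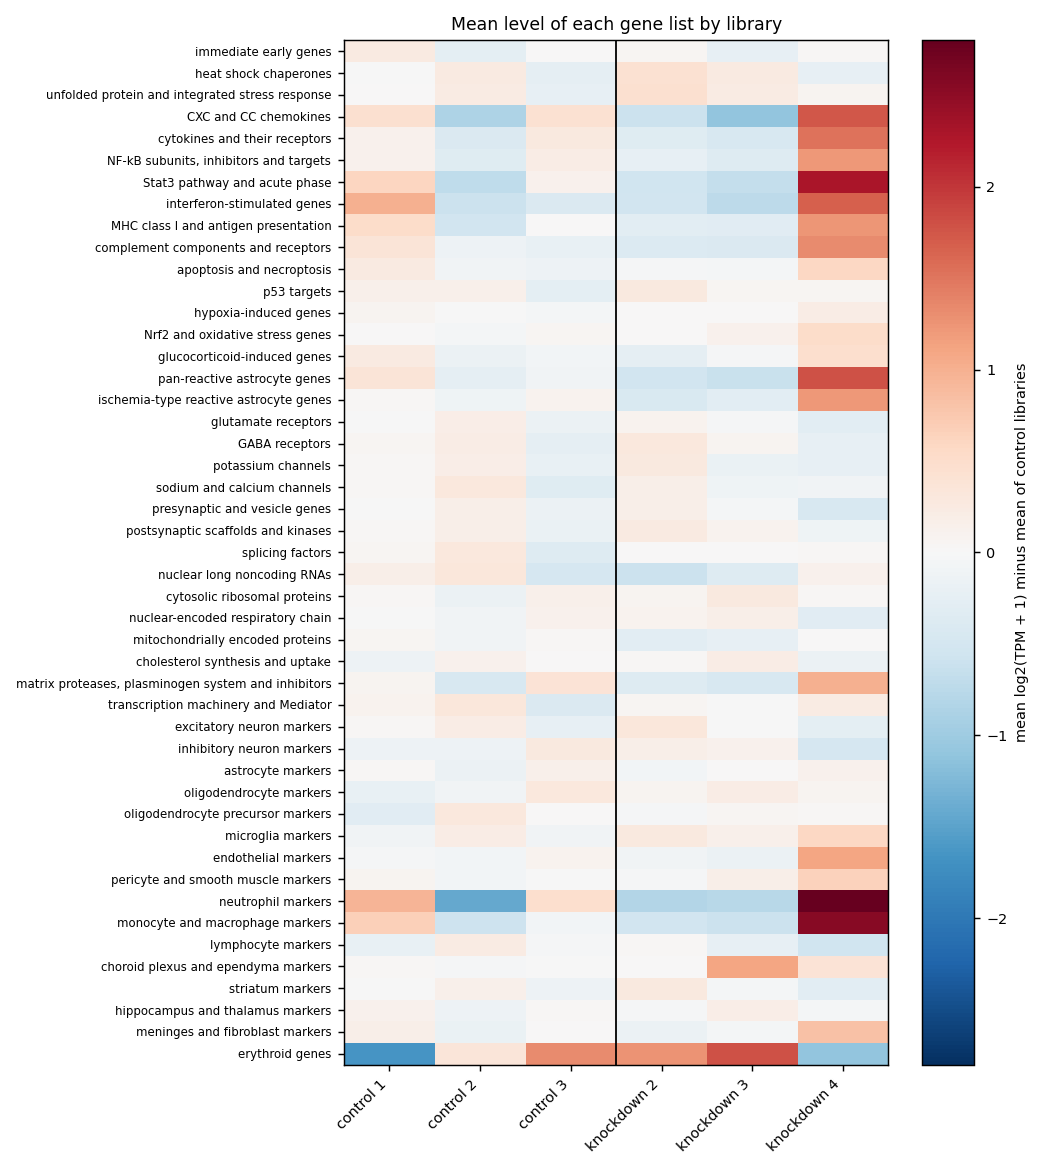
Mean log2(TPM + 1) of each of 47 gene lists in the 6 libraries, as the difference from the mean of the control libraries (colour scale in log2 units). The neutrophil, monocyte and macrophage, interferon and endothelial lists are highest in knockdown 4, and the lymphocyte list of 3 tested genes is lowest there.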

How the data were processed

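The 6 libraries compared were made with a stranded poly(A) kit, per the labels' protocols. The submitters' processing notes name HISAT2 2.0, StringTie 1.3 and GRCm38 (mm10). Per the file headers, the authors ran StringTie 1.3.4d in estimation mode against a merged annotation, with no strand option, and deposited coverage, FPKM and TPM for 131100 transcripts of 52550 genes in each library. Of these transcripts 99.6% are in GENCODE M21, and 97.7% of those have the same span. The files used hold no counts, so no count test was run.

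Gene TPM was summed over transcripts. Features with at least 1 TPM in at least 3 of the 9 libraries were tested with limma 3.58.1 (trend; R 4.3.3) on log2(TPM + 1), with Benjamini-Hochberg adjustment over all tested and calls at 0.05, on the 6 libraries compared. Shares were tested as log2 odds with an offset of 0.5 TPM, in genes of mean TPM of at least 5 with at least 2 transcripts of mean TPM of at least 1. Aligned bases are coverage times length, in parts-per-million of the library, with a pseudocount of 0.5; this scale was added after the data were seen. Tables were made with Python 3.11.15. The tests were tested on simulated data. Read pairs were taken as aligned bases divided by the most common pair length, 282 bases. Named were 12 genes and 10 transcripts (of genes with at least 2 tested) per direction by smallest p, the genes with groups that do not overlap and a mean of at least 2 TPM, 12 shares by smallest p that differ by at least 10 points without overlap, 1 per gene, and up to 3 members per list by smallest p and by their difference of knockdown 4 from knockdown 2 and 3; clone-named, pseudogene and mitochondrial genes were left out, and other genes in the text were chosen after their values were seen. Some items the rules name are not reported here. The members and lists were chosen with earlier results of these data known. Alternatives covered pseudocounts, filters, scaling, FPKM, library weights, all 9 libraries, replicate numbers as a block and each library left out.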

Additional observations from a re-analysis of the deposited data

How the results depend on the processing

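Genes called higher numbered 1, and 2 with a pseudocount of 0.1, a filter on the 6 libraries, a mean TPM of at least 5 or median-ratio scaling, 3 with library weights or all 9 libraries, and 0 with TPM over nuclear protein-coding genes, which leaves out both called genes (213 at an unadjusted p under 0.05, limma; genes called lower were 0 there too). Leaving out 1 library gave 0 to 2 higher and 1 lower. Transcripts called higher (20) and lower (7) were 49 and 19 with a pseudocount of 0.1, 7 and 3 with 5, 4 and 3 with no filter, 10 and 4 at a mean TPM of at least 5, 48 and 27 with library weights, and 32 and 16 with all 9 libraries. FPKM gave 8 higher, and the filter on the 6 libraries 11 lower. Leaving out 1 library gave 0 to 9 higher and 2 to 6 lower. Shares called higher (13) and lower (12) were 7 and 3 on the arcsine scale and 76 and 69 with diffSplice, and 22 were higher with an offset of 0.1. Leaving out 1 library gave 0 to 13 higher and 1 to 14 lower. Of 25 called shares and 27 called transcripts, 17 each were lost in every such fit. Aligned bases per gene gave 1 higher and 1 lower.

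With the replicate number as a block, 0 genes, 0 transcripts and 0 shares were called in either direction (limma), with 659, 1732 and 1445 at an unadjusted p under 0.05. The groups share only 2 numbers. The block fit thus takes the group difference from those 2 pairs, without control 1 and knockdown 4, and has little left to estimate the spread. Calls were unlikely in it whatever the data, so their loss decides nothing. Deviations of same-numbered libraries correlated at 0.23 and 0.07. For libraries with different numbers the correlations lay between -0.24 (control 2 and knockdown 4) and 0.29 (control 1 and knockdown 4). With only 2 same-numbered pairs, these values cannot decide whether the numbers pair the samples. No named gene, transcript or share changed direction in any setting where it was tested. The named genes and shares were picked for groups that do not overlap, and the transcripts by smallest p. Leaving out a library could therefore hardly reverse them, and the lack of reversals is no evidence that they are stable. With 3 libraries a group and no read counts, only large differences could be called.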
